A study of Mus musculus with 14 samples.

Results

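Nt5e, Entpd1, Adora2a, Ada, P2rx7 and Cd38 encode 6 proteins that make, remove or sense nucleotides and adenosine outside cells. They were followed in bulk RNA sequencing of CD4 T cells from C57BL/6 mice. The 6 genes were chosen by name, with earlier results of these data in view, and were found by their Entrez identifiers among 27179 genes. All 6 were among the 13075 genes with enough counts to be tested. Because the genes were picked with their levels known, their values are given as a description, and the calls counted for them support nothing. Tfh5 cells were grown under conditions for follicular helper T cells (Tfh), which help B cells make antibody, with 5 ng/ml TGF-β (5 libraries). TfhA cells were grown under Tfh conditions with an antibody against TGF-β (4 libraries, numbered 1, 2, 4 and 5). Th1 cells were grown under conditions for type 1 helper T cells, which make interferon-γ (5 libraries). All 3 groups started from naive CD4 cells and spent 3.5 days in culture on plate-bound antibodies to CD3 and CD28, and all were sorted by flow cytometry before lysis. The labels name no cytokine but TGF-β, no sort gate and no link of replicates to animals or cultures, so p-values measure the spread between these libraries, which may be technical.

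ATP released from activated or damaged cells acts as a danger signal through P2 receptors. CD39 (Entpd1) converts ATP and ADP to AMP, and CD73 (Nt5e) converts AMP to adenosine. Adenosine acts on receptors such as the one encoded by Adora2a, which raises cyclic AMP and dampens T cell receptor signalling, and is removed by adenosine deaminase (Ada). P2rx7 encodes an ATP-gated ion channel whose opening can lead to shedding of surface proteins and to death of T cells. CD38 (Cd38) consumes NAD outside the cell and makes cyclic ADP-ribose and ADP-ribose.

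Promoter windows are printed for the 2 genes that stood far higher in Tfh5 than in TfhA, Nt5e and Cd38, and for P2rx7, which was highest in Th1. Each window runs from 250 bases before to 50 bases after the gene start in RefSeq, build GRCm38.p6 (mm10), and 5 of the 6 genes had at least 1 window. Both strands were searched for CAGAC (the SMAD box, bound by the SMAD proteins that carry TGF-β signals), TGCTGA (the Maf half-site), TGANTCA (an AP-1 site), TGACG (the CRE half-site of genes that respond to cyclic AMP) and TCACAC (the T-box half-site). Capitals mark matches, and GTCTG is CAGAC read on the other strand.
Nt5e, chr9:88327359-88327658, plus strand: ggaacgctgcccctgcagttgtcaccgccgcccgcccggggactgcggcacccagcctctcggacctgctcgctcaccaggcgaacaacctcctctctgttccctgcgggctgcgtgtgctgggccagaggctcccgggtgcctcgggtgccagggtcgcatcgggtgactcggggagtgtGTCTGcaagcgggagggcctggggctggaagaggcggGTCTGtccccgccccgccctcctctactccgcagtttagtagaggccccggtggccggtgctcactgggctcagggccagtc
Cd38, chr5:43868559-43868858, plus strand: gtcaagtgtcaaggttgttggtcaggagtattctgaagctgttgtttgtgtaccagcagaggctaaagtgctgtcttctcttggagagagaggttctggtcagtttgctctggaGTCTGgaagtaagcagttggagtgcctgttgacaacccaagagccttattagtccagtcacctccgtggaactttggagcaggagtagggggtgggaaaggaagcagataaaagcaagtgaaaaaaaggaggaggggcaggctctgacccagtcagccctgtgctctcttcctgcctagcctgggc
P2rx7, chr5:122643677-122643976, plus strand: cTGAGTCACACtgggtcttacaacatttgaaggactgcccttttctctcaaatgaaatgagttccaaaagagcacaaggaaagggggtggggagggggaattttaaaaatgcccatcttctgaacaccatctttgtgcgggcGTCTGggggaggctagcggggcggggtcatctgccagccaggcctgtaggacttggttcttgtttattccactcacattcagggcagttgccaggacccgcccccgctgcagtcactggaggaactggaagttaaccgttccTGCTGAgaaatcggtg
The Nt5e window held 2 SMAD boxes and the Cd38 window 1, with no match to the other 4 motifs in either. The P2rx7 window printed held 1 SMAD box, 1 Maf half-site, and 1 AP-1 site that shares 3 bases with 1 T-box half-site. A second P2rx7 window, chr5:122650133-122650432, is not printed; it held 2 SMAD boxes and 1 T-box half-site and no match to the other 3 motifs. Of 32851 promoter windows of this length, 49.6% held the SMAD box, 19.5% the Maf half-site, 7.81% the AP-1 site, 20.8% the CRE half-site and 14.5% the T-box half-site. The windows of Entpd1 and Ada also held the SMAD box, so this motif did not set Nt5e and Cd38 apart. A match describes letters in a window, and no binding was measured.

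Library totals were 9766313 to 13316633 counts in Tfh5, 8805921 to 13027721 in TfhA and 13390058 to 16108059 in Th1. The 8 CD4 T cell markers summed to 8487 to 8832 CPM (counts scaled to library size) in Tfh5, 5566 to 6719 in TfhA and 5050.4 to 5372 in Th1. The 6 B cell markers summed to 0.408 to 1.9 CPM in Tfh5, 6.16 to 10.4 in TfhA and 1.59 to 3.3 in Th1, and Pax5 had no count in Th1. The 8 markers of monocytes, macrophages and dendritic cells stayed under 8 CPM in every library, with Lyz2 and Adgre1 at 0 in Tfh5 and TfhA, and Adgre1 and Itgax at 0 in Th1. The 5 CD8 and NK cell markers summed to 8.54 to 22.7 CPM in Tfh5, 8.81 to 22.4 in TfhA and 12.2 to 34 in Th1, with Ncr1 at 0 in all 3 groups. Trdc, the γδ T cell receptor constant gene, ranged from 6.58 to 14.4 CPM in Tfh5, 32.8 to 79.2 in TfhA and 4.01 to 7.84 in Th1. Mitochondrially encoded genes took 8.03% ± 0.594 of counts in Tfh5 (SD, n = 5), 5.82% ± 1.30 in TfhA (n = 4) and 5.91% ± 0.871 in Th1 (n = 5). The share was 2.22 points higher in Tfh5 than in TfhA and 2.12 points higher than in Th1 (two-sided exact permutation test, adjusted p = 0.0119 for both), and TfhA and Th1 differed by less than their spread (-0.0943 points, adjusted p = 0.889). Without TfhA replicate 4 the difference between Tfh5 and TfhA was 1.64 points and missed the threshold. The part of these markers and shares in the results was not tested. In bulk RNA, a change in the number of expressing cells and a change in RNA per cell cannot be told apart.

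Nt5e, which encodes CD73, was abundant in Tfh5 and scarce in both other cultures. The gene (Entrez 23959) lies at chr9:88327609-88372089 in mm10. Its level was 1365, 1843, 1522, 1372 and 1526 CPM in Tfh5, 21.4, 20, 12.9 and 19.7 CPM in TfhA, and 5.61, 10.2, 6.43, 4.09 and 4.95 CPM in Th1. No library of one group overlapped with another group. The level was 81.9-fold higher in Tfh5 than in TfhA (log2 fold change 6.36 ± 0.20, SE) and 243-fold higher than in Th1 (7.93 ± 0.20). TfhA stood 2.97-fold above Th1 (1.57 ± 0.19), so that the culture with blocked TGF-β still held more Nt5e RNA than Th1. By mean level Nt5e ranked 44 among the 13075 tested genes in Tfh5, 7356 in TfhA and 9609 in Th1. It took 0.152% of all counts in Tfh5, 0.00192% in TfhA and 0.000615% in Th1.

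**Figure D1:**
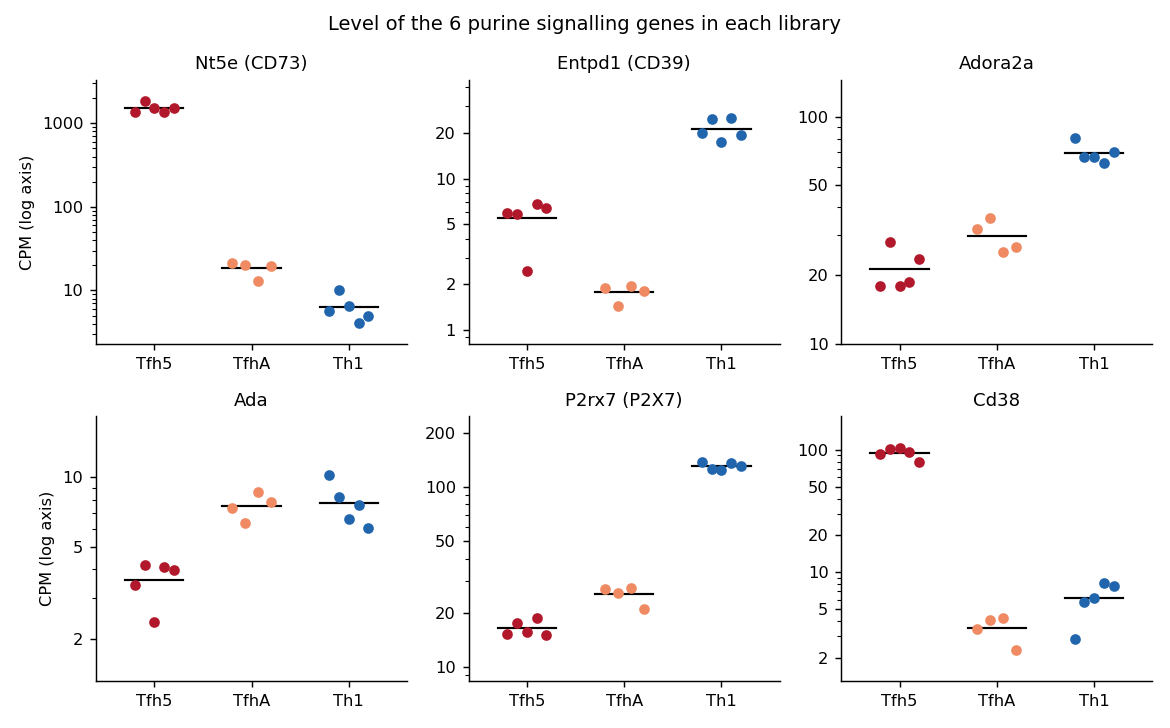
Level of each of the 6 genes in every library, in CPM on a log axis; points are libraries of Tfh5 (n = 5), TfhA (n = 4) and Th1 (n = 5), and lines are group means. Nt5e and Cd38 are highest in Tfh5, and Entpd1, Adora2a and P2rx7 are highest in Th1.

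Entpd1, which encodes CD39 and supplies the substrate of CD73, had a different order from Nt5e. The gene (Entrez 12495) lies at chr19:40612366-40741602. Its level was 5.90, 5.81, 2.45, 6.83 and 6.43 CPM in Tfh5, 1.89, 1.45, 1.95 and 1.8 CPM in TfhA, and 20, 24.8, 17.4, 25.0 and 19.4 CPM in Th1. Th1 was highest and TfhA lowest, with no overlap between neighbouring groups, although Tfh5 replicate 3 stood apart from its group near the TfhA range. Entpd1 was 3.1-fold higher in Tfh5 than in TfhA (log2 1.63 ± 0.26), 12-fold lower in TfhA than in Th1 (-3.58 ± 0.25) and 3.87-fold lower in Tfh5 than in Th1 (-1.95 ± 0.20). The TfhA values rest on 77 counts over 4 libraries. Regulatory T cells carry both CD39 and CD73. The 4 regulatory T cell markers Foxp3, Ikzf2, Lrrc32 and Nrp1 summed to 64.6 to 84.5 CPM in Tfh5, 151 to 179 in TfhA and 85.7 to 101 in Th1, and Foxp3 itself averaged 4.19 CPM in Tfh5, 2.24 in TfhA and 2.43 in Th1; their part in the Nt5e and Entpd1 levels was not tested. There are 3 annotated genes on the same strand that overlap Entpd1, and no source used here states how shared reads were counted.

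The balance of CD73 over CD39 RNA, as the ratio of their CPM per kb of exon, differed between all 3 cultures. The ratio was 252, 345, 675, 218 and 258 in Tfh5, 12.3, 15.0, 7.20 and 11.9 in TfhA, and 0.306, 0.448, 0.402, 0.178 and 0.277 in Th1. Nt5e therefore exceeded Entpd1 in every Tfh5 and TfhA library, and Entpd1 exceeded Nt5e in every Th1 library. The highest Tfh5 ratio, 675, belonged to replicate 3, the library with the low Entpd1 level.

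Ada, whose product deaminates adenosine to inosine, was lowest in Tfh5. The gene (Entrez 11486) lies on the minus strand at chr2:163726571-163750239. Its level was 3.43, 4.18, 2.36, 4.08 and 3.96 CPM in Tfh5, 7.35, 6.31, 8.66 and 7.85 CPM in TfhA, and 10.2, 8.18, 6.58, 7.56 and 6.02 CPM in Th1. All Tfh5 libraries were below all others, and TfhA and Th1 overlapped. Ada was 2.08-fold lower in Tfh5 than in TfhA (log2 -1.06 ± 0.22) and 2.14-fold lower than in Th1 (-1.10 ± 0.20), with a TfhA to Th1 difference of -0.04 ± 0.20.

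Adora2a, which encodes the Gs-coupled adenosine receptor most associated with suppression of T cells, was highest in Th1. The gene (Entrez 11540) lies at chr10:75316877-75334792. Its level was 17.9, 28.0, 17.9, 18.7 and 23.7 CPM in Tfh5, 32.1, 35.7, 25.4 and 26.6 CPM in TfhA, and 80.8, 66.4, 66.2, 62.8 and 69.8 CPM in Th1. Tfh5 and TfhA overlapped, and both lay below every Th1 library. Adora2a was 1.41-fold lower in Tfh5 than in TfhA (log2 -0.50 ± 0.14), 2.3-fold lower in TfhA than in Th1 (-1.20 ± 0.14) and 3.26-fold lower in Tfh5 than in Th1 (-1.70 ± 0.13). The culture with the most CD73 RNA thus held the least RNA of this receptor on average.

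P2rx7, the ATP-gated channel gene (Entrez 18439, chr5:122643927-122692336), was highest in Th1. Its level was 15.3, 17.5, 15.6, 18.8 and 15.1 CPM in Tfh5, 27.1, 25.8, 27.6 and 21 CPM in TfhA, and 137, 126, 125, 136 and 131 CPM in Th1. The 3 groups did not overlap. P2rx7 was 1.54-fold lower in Tfh5 than in TfhA (log2 -0.63 ± 0.11), 5.16-fold lower in TfhA than in Th1 (-2.37 ± 0.11) and 7.97-fold lower in Tfh5 than in Th1 (-2.99 ± 0.10). Its spread in Th1 was the smallest of the 6 genes in that group, with a coefficient of variation of 4.14%.

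Cd38, the NAD-consuming ectoenzyme gene (Entrez 12494, chr5:43868809-43912374), was high in Tfh5 like Nt5e. Its level was 93.1, 101, 104, 95.1 and 79.0 CPM in Tfh5, 3.48, 4.10, 4.22 and 2.34 CPM in TfhA, and 2.87, 5.69, 6.20, 8.25 and 7.69 CPM in Th1. TfhA and Th1 overlapped through Th1 replicate 1, and every Tfh5 library was far above both. Cd38 was 26.6-fold higher in Tfh5 than in TfhA (log2 4.73 ± 0.22) and 15.5-fold higher than in Th1 (3.95 ± 0.18), and was 1.72-fold lower in TfhA than in Th1 (-0.78 ± 0.23). CD38 is also found on B cells, whose 6 markers summed on average to 1.17 CPM in Tfh5, 8.1 in TfhA and 2.28 in Th1. Tfh5 and Th1 overlapped in this sum. Of 5 tested B cell markers, 1 (Cd22) was called lower in Tfh5 than in Th1 and 4 were not called. The part of B cells in the Cd38 level was not tested. An annotated antisense gene overlaps Cd38, and without a stated strand setting its reads cannot be told apart from those of Cd38.

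**Figure D2:**
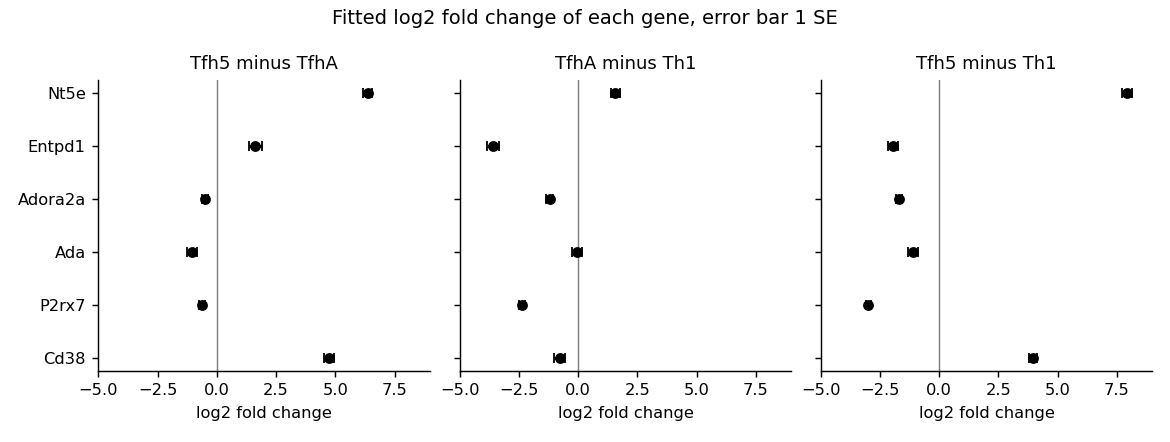
Fitted log2 fold change of the 6 genes (rows) in the 3 comparisons (panels); error bars are 1 SE. Nt5e and Cd38 lie far right of 0 in both comparisons of Tfh5, and P2rx7 lies left of 0 in all 3.

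Across the 6 genes, 3 were higher and 3 lower in Tfh5 than in TfhA at an adjusted p under 0.05, and the libraries of 5 did not overlap. Of all tested genes, 57.5% passed in this comparison, 27.4% higher and 30.1% lower, and 44.2% had no overlap. In TfhA against Th1, 1 was higher, 4 were lower and Ada did not pass, and 4 had no overlap; the figures for all tested genes were 44.8% in either direction, 23.2% higher, 21.6% lower and 38.1% without overlap. In Tfh5 against Th1, 2 were higher and 4 lower and all 6 had no overlap, beside 64.6% of all tested genes in either direction, 31.5% higher, 33% lower and 50.2% without overlap. Nothing is read from these counts, since the genes were chosen with these comparisons known. The 3 comparisons share libraries, so their values are set side by side and are not independent.

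Scaled for exon length, Nt5e led in Tfh5 with 382 ± 48.5 CPM per kb (SD, n = 5), followed by Cd38 at 28.9 ± 2.99, Adora2a at 8.19 ± 1.73 and P2rx7 at 2.98 ± 0.294. Ada (2.13 ± 0.446 CPM per kb) and Entpd1 (1.26 ± 0.401) came last in Tfh5 and overlapped. In TfhA the order began with Adora2a at 11.5 ± 1.84 CPM per kb (n = 4). Nt5e, P2rx7 and Ada followed in TfhA at 4.63, 4.59 and 4.47 CPM per kb and did not separate. Cd38 at 1.08 and Entpd1 at 0.408 CPM per kb were the lowest in TfhA. In Th1, Adora2a at 26.7 ± 2.66 and P2rx7 at 23.7 ± 0.983 CPM per kb led and overlapped (n = 5). Entpd1 at 4.90 and Ada at 4.56 CPM per kb came next in Th1, and Cd38 at 1.88 and Nt5e at 1.57 were the lowest. By mean CPM per kb, Adora2a thus led in TfhA, Adora2a and P2rx7 led in Th1, and Nt5e led in Tfh5. Without length scaling P2rx7 was highest in Th1, with a mean of 131 CPM against 69.2 for Adora2a.

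**Figure D3:**
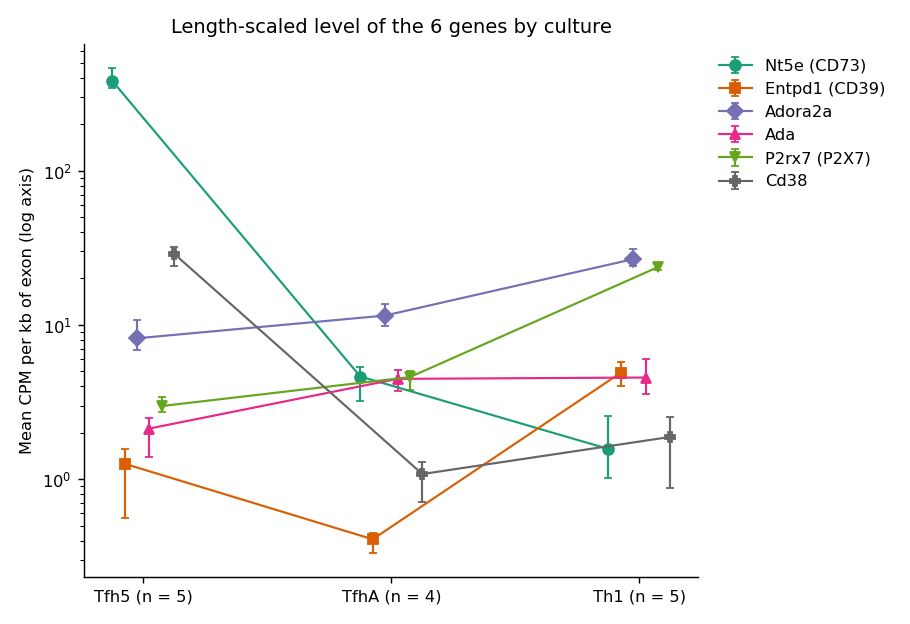
Mean CPM per kb of exon of each of the 6 genes in Tfh5, TfhA and Th1, on a log axis; error bars run from the lowest to the highest library and lines join the groups to guide the eye. Nt5e stands at 382 in Tfh5 and is the lowest of the 6 in Th1 at 1.57.

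The genes most like each of the 6 were taken by the root mean square difference of centred log2 CPM over the 14 libraries, where 0 means the same pattern. For Nt5e they were Gcnt2 (0.44), Cd33 (0.49) and Iglon5 (0.55), against a median of 3.57 over all tested genes. For Cd38 they were Gphb5 (0.35), Tfap2a (0.39) and Lgmn (0.41), against a median of 2.15. Smox (0.47), Pla1a (0.48) and Frmd4b (0.49) were nearest to Entpd1, with a median of 1.51. Rnf157 (0.16) and Chst15 (0.18) were among the nearest to Adora2a, with a median of 0.86. Crabp2 (0.17), Scly (0.21) and Ndrg2 (0.23) were nearest to P2rx7, with a median of 1.37. Msto1 (0.22), Rnps1 (0.23) and Anapc5 (0.23) were nearest to Ada, with a median of 0.70. Among the 6 themselves, Adora2a and Ada were the closest pair at 0.55, Adora2a and P2rx7 followed at 0.62, and Nt5e and Cd38 differed by 1.77. These distances are descriptions over libraries that share 3 group means.

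The wider pathway was read from 11 gene lists with 147 genes, none of them among the 6, of which 117 passed the filter on low counts. Of these 117, 31 rose and 49 fell in Tfh5 against TfhA (median log2 fold change -0.21), where 27.4% of all tested genes rose and 30.1% fell (median -0.01). In TfhA against Th1, 41 rose and 30 fell (median 0.13), where 23.2% of all tested genes rose and 21.6% fell (median 0.03). In Tfh5 against Th1, 40 rose and 57 fell (median -0.27), where 31.5% of all tested genes rose and 33% fell (median -0.01). The counts of the single lists stand against the same shares over all genes. The lists were chosen with earlier results of these data known, so their counts are a description and not independent support. The call was an adjusted p under 0.05 in edgeR's quasi-likelihood test, adjusted over all 13075 genes.

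Among 13 other ectoenzyme genes, 10 were tested. Of these, 3 rose and 5 fell in Tfh5 against TfhA (median log2 fold change -1.51), 4 rose and 3 fell in TfhA against Th1 (-0.04), and 3 rose and 7 fell in Tfh5 against Th1 (-0.67). Acpp encodes prostatic acid phosphatase, whose membrane form also converts AMP to adenosine. Acpp stood at 168, 241, 199, 233 and 186 CPM in Tfh5, 4.17, 7.93, 2.92 and 6.26 CPM in TfhA, and 1.68, 2.91, 1.59, 0.971 and 1.37 CPM in Th1. Acpp RNA was therefore, like Nt5e RNA, highest in Tfh5 (log2 5.26 ± 0.22 against TfhA, adjusted p = 3.49e-16, and 6.90 ± 0.22 against Th1, adjusted p = 8.58e-19). Acpp was also higher in TfhA than in Th1 (1.64 ± 0.27, adjusted p = 2.09e-05). Alpl, another phosphatase gene of this list, averaged 0.189 CPM in Tfh5, 0.805 in TfhA and 0.903 in Th1. It was called lower in Tfh5 than in TfhA (adjusted p = 0.0343) and Th1 (adjusted p = 0.0162), with overlapping libraries. Art2a belongs to a family of NAD-dependent ADP-ribosyltransferases and carries an early stop in C57BL/6 mice. It averaged 24.9 ± 11.1 CPM in Tfh5, 0.684 in TfhA and 0.661 in Th1 (Tfh5 against TfhA 5.16 ± 0.50, adjusted p = 2.55e-09), and Tfh5 replicate 1 was low at 5.81 CPM. Its near-identical copy Art2b rose in the same comparison (1.91 ± 0.31, adjusted p = 8.14e-06), and no source used here states how reads were split between the copies, so both levels are uncertain.

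Dpp4 encodes CD26, the peptidase that anchors adenosine deaminase on the T cell surface in humans. Dpp4 stood at 87.6, 93.0, 104, 86.6 and 68.7 CPM in Tfh5, 446, 398, 417 and 497 CPM in TfhA, and 98.1, 112, 112, 116 and 109.9 CPM in Th1. TfhA was set apart from both other groups, with log2 fold changes of -2.32 ± 0.10 for Tfh5 against TfhA (adjusted p = 1.92e-15) and 2.0 ± 0.10 for TfhA against Th1 (adjusted p = 7.55e-14). Enpp2, the autotaxin gene, fell in Tfh5 against TfhA (-1.35 ± 0.30, adjusted p = 4.62e-04) and in TfhA against Th1 (-2.12 ± 0.25, adjusted p = 2.44e-07). Bst1, a relative of Cd38 that also acts on NAD, averaged lower in Tfh5 than in both other cultures, whereas Cd38 was higher in Tfh5. It fell in Tfh5 against TfhA (-2.53 ± 0.67, adjusted p = 0.00239), but the libraries of these groups overlapped. Tfh5 held 11 Bst1 counts, 9 of them in replicate 5. Like Cd38, Bst1 was lower in TfhA than in Th1. Bst1 averaged 0.172 CPM in Tfh5, 1.15 in TfhA and 5.96 in Th1. Bst1 was 4.99-fold lower in TfhA than in Th1 and 7.67-fold lower without TfhA replicate 1, and it was 28.8-fold lower in Tfh5 than in Th1 and 102-fold lower without Tfh5 replicate 5.

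**Figure D4:**
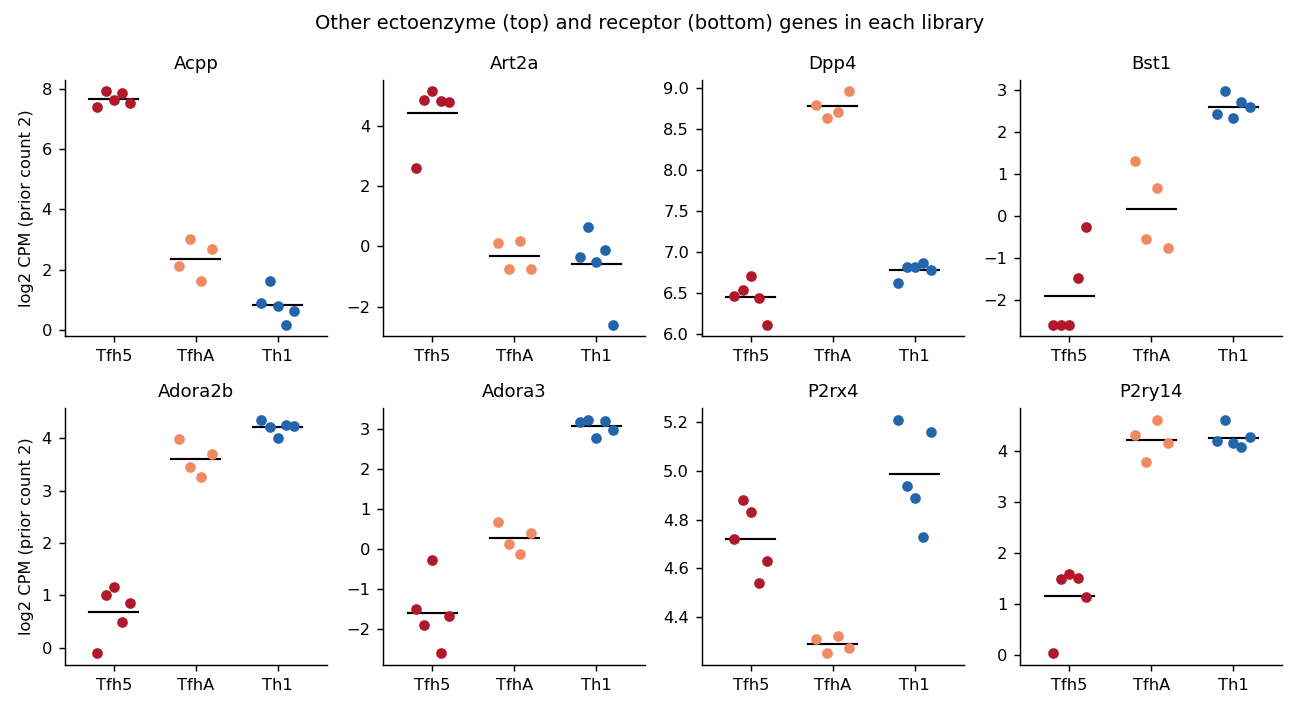
Log2 CPM (prior count 2) of 4 ectoenzyme genes (top) and 4 receptor genes (bottom) in each library of Tfh5 (n = 5), TfhA (n = 4) and Th1 (n = 5); lines are group means and each panel has its own scale. Acpp is highest in Tfh5, Dpp4 in TfhA, and Adora2b and Adora3 are lowest in Tfh5.

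The other adenosine receptors shared the order of Adora2a. Adora2b, which encodes a low-affinity Gs-coupled receptor, stood at 0.762, 1.84, 2.08, 1.23 and 1.64 CPM in Tfh5, 15.8, 10.8, 9.42 and 12.7 CPM in TfhA, and 20.3, 18.4, 15.9, 18.9 and 18.6 CPM in Th1. It fell in Tfh5 against TfhA (-3.01 ± 0.22, adjusted p = 2.06e-11) and in TfhA against Th1 (-0.59 ± 0.18, adjusted p = 0.0097). Adora3, which encodes a Gi-coupled receptor, averaged 0.220 CPM in Tfh5, 1.08 in TfhA and 8.32 in Th1. Adora3 was 4.79-fold lower in Tfh5 than in TfhA (adjusted p = 4.30e-04) and 8.94-fold lower without Tfh5 replicate 3, and 36.3-fold lower in Tfh5 than in Th1 (adjusted p = 2.41e-11) and 67.6-fold lower without that library. Both tested receptors thus fell in each of the 3 comparisons, and Adora1 had no count in any library.

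Of the ATP and nucleotide receptors other than P2rx7, 2 of 6 P2X and 3 of 7 P2Y genes were tested. P2rx4, another ATP-gated channel, stood at 26.2, 29.4, 28.2, 23.1 and 24.5 CPM in Tfh5, 19.6, 18.9, 19.8 and 19.1 CPM in TfhA, and 36.8, 30.4, 29.4, 26.4 and 35.6 CPM in Th1. Unlike P2rx7 it was higher in Tfh5 than in TfhA (0.44 ± 0.12, adjusted p = 0.00386), and it was lower in TfhA than in Th1 (-0.71 ± 0.12, adjusted p = 4.26e-05). Its fall in Tfh5 against Th1 (-0.27 ± 0.11, adjusted p = 0.0373) did not pass without Th1 replicate 1 (0.11) or 5 (0.105), or without Tfh5 replicate 4 (0.0978) or 5 (0.0775). P2rx3 averaged 0.359 CPM in Tfh5, 0.781 in TfhA and 5.12 in Th1 and fell in TfhA against Th1 (-2.70 ± 0.42, adjusted p = 1.00e-05). Its difference between Tfh5 and TfhA (-1.14 ± 0.54, adjusted p = 0.0754) passed without TfhA replicate 4 (0.0379) or Tfh5 replicate 1 (0.033).

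All 3 tested P2Y genes fell in Tfh5 against TfhA and against Th1. P2ry14, the receptor for UDP-sugars, stood at 0.857, 2.65, 2.83, 2.66 and 2.02 CPM in Tfh5, 19.7, 13.6, 24 and 17.6 CPM in TfhA, and 18.0, 24, 17.5, 16.6 and 19.0 CPM in Th1 (Tfh5 against TfhA -3.08 ± 0.23, adjusted p = 2.51e-11). Tfh5 lay below every other library, and TfhA and Th1 overlapped. P2ry1, an ADP receptor gene, had 0 counts in Tfh5, 105 in TfhA and 37 in Th1, and was at least 44-fold lower in Tfh5 than in TfhA and at least 9.49-fold lower than in Th1, taking 3 counts over the group as the floor. P2ry12, another ADP receptor gene, averaged 0.749 CPM in Tfh5, 1.6 in TfhA and 1.49 in Th1. Its fall against TfhA (-1.10 ± 0.40, adjusted p = 0.0211) did not pass without TfhA replicate 1 (0.079) or 2 (0.0567), and its fall against Th1 (-0.99 ± 0.38, adjusted p = 0.0248) did not pass without Th1 replicate 4 (0.0823) or 5 (0.0559) or Tfh5 replicate 4 (0.0601).

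Below Gs-coupled receptors such as that of Adora2a, 25 genes of cyclic AMP signalling were tested. Of these, 9 rose and 6 fell in Tfh5 against TfhA (median log2 fold change 0.07), 7 rose and 9 fell in TfhA against Th1 (0.07), and 10 rose and 13 fell in Tfh5 against Th1 (-0.27). Pde2a, a phosphodiesterase that breaks down cyclic nucleotides, averaged 59.8 CPM in Tfh5, 3.30 in TfhA and 0.922 in Th1 (Tfh5 against TfhA 4.16 ± 0.18, adjusted p = 1.02e-15). Rapgef4, a cyclic AMP sensor that activates Rap, averaged 52.2 CPM in Tfh5, 5.4 in TfhA and 4.51 in Th1 (Tfh5 against TfhA 3.26 ± 0.17, adjusted p = 4.18e-14). Prkar1b, a regulatory subunit of protein kinase A, went the other way at 0.118 CPM in Tfh5, 5.15 in TfhA and 4.17 in Th1. Its Tfh5 level rests on 6 counts. Prkar1b was 42.8-fold lower in Tfh5 than in TfhA (adjusted p = 3.18e-09), 65.8-fold without Tfh5 replicate 1 and 67.2-fold without Tfh5 replicate 2. Prkar1a, the most abundant regulatory subunit gene listed, averaged 869 CPM in Tfh5, 769.8 in TfhA and 595 in Th1. Prkar1a was not called in Tfh5 against TfhA (0.17 ± 0.08, adjusted p = 0.0801), where Prkar2a (-1.35 ± 0.13) and Prkar2b (-1.66 ± 0.37) fell. Crem, a transcription factor gene induced by cyclic AMP, averaged 168 CPM in Tfh5, 177 in TfhA and 666 in Th1, and fell in TfhA against Th1 (-1.91 ± 0.11, adjusted p = 8.11e-13). Most listed phosphodiesterase genes rose in Tfh5 against TfhA: Pde2a, Pde3b, Pde4a, Pde4d and Pde7a rose, Pde8a fell and Pde4b was not called. In TfhA against Th1, most of them fell: Pde4a, Pde4b, Pde4d, Pde7a and Pde8a fell, Pde2a rose and Pde3b was not called. In Tfh5 against Th1, Pde2a, Pde3b and Pde4d rose, and Pde4a, Pde4b, Pde7a and Pde8a fell. Genes for proteins that respond to cyclic AMP also moved in both directions.

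Of 10 tested genes placed downstream of P2rx7 (shedding, membrane scrambling and inflammasome), 4 rose and 3 fell in Tfh5 against TfhA (median log2 fold change -0.08), 4 rose and 1 fell in TfhA against Th1 (0.19), and 5 rose and 3 fell in Tfh5 against Th1 (0.30). The 4 that rose in TfhA against Th1 were 2 without Th1 replicate 4 or TfhA replicate 2 and 1 without TfhA replicate 4, and the 1 that fell was 0 without Th1 replicate 3 or TfhA replicate 1, 2 or 5. Casp1, which cleaves interleukin-1β and gasdermin D, averaged 1.79 CPM in Tfh5, 26.9 in TfhA and 29.7 in Th1 (Tfh5 against TfhA -3.92 ± 0.21, adjusted p = 6.07e-14). Gsdmd, the pore-forming substrate of that caspase, fell in the same comparison (-1.14 ± 0.18, adjusted p = 5.61e-06). Pycard, another inflammasome gene of this list, averaged 56 CPM in Tfh5, 66.2 in TfhA and 34.4 in Th1. Pycard was not called in Tfh5 against TfhA (-0.24 ± 0.12, adjusted p = 0.0783) and rose in Tfh5 against Th1 (0.70 ± 0.11, adjusted p = 5.77e-06). Tmem176b, a cation channel gene reported to restrain the inflammasome, averaged 51.9 CPM in Tfh5, 7.55 in TfhA and 6.07 in Th1 (Tfh5 against TfhA 2.78 ± 0.16, adjusted p = 2.53e-13).

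Of 7 tested genes for ATP release channels, 2 rose and 3 fell in Tfh5 against TfhA (median log2 fold change -0.02), 2 rose and 3 fell in TfhA against Th1 (-0.31), and 3 rose and 2 fell in Tfh5 against Th1 (0.24). Panx1, the pannexin through which activated T cells release ATP, averaged 57.6 CPM in Tfh5, 79.9 in TfhA and 40.5 in Th1 (TfhA against Th1 0.98 ± 0.09, adjusted p = 6.33e-09). Gja1, which encodes connexin 43, averaged 96.0 CPM in Tfh5, 37.5 in TfhA and 68.8 in Th1 (Tfh5 against TfhA 1.35 ± 0.16, adjusted p = 9.15e-08).

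Inside the cell, 20 genes of purine synthesis and nucleotide kinases were tested. Of these, 2 rose and 14 fell in Tfh5 against TfhA (median -0.75), beside 27.4% higher and 30.1% lower over all tested genes. In Tfh5 against Th1, 2 rose and 13 fell (-0.39), beside 31.5% higher and 33% lower. In TfhA against Th1, 9 rose, 1 fell and 10 were not called (0.25), beside 23.2% higher and 21.6% lower. The 2 that rose in Tfh5 against TfhA were 1 without TfhA replicate 1, 2 or 4 or Tfh5 replicate 1 or 3. The 1 that fell in TfhA against Th1 was 0 without Th1 replicate 2 or 5, any one TfhA library, or Tfh5 replicate 2. Gart, a trifunctional enzyme of the pathway, averaged 35.9 CPM in Tfh5, 87.5 in TfhA and 47.8 in Th1 (Tfh5 against TfhA -1.29 ± 0.11, adjusted p = 2.51e-10). Ppat, the committing step, fell by 1.09 on the log2 scale in the same comparison (SE 0.11, adjusted p = 4.71e-09). Ak4, a mitochondrial adenylate kinase gene, averaged 7.62 CPM in Tfh5, 38.0 in TfhA and 33.0 in Th1 (-2.31 ± 0.15, adjusted p = 2.56e-12).

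In nucleoside transport, salvage and breakdown, 17 genes were tested. Of these, 4 rose and 9 fell in Tfh5 against TfhA (median log2 fold change -0.42), 7 rose and 4 fell in TfhA against Th1 (0.28), and 8 rose and 7 fell in Tfh5 against Th1 (0.23). Slc29a1, the equilibrative transporter that takes up adenosine, averaged 234 CPM in Tfh5, 195 in TfhA and 69.0 in Th1 (TfhA against Th1 1.5 ± 0.12, adjusted p = 3.13e-10). Xdh, the enzyme that makes uric acid, averaged 3.31 CPM in Tfh5, 18.5 in TfhA and 75.0 in Th1 (Tfh5 against Th1 -4.52 ± 0.20, adjusted p = 7.24e-16). Hprt, which salvages hypoxanthine and guanine, averaged 82.1 CPM in Tfh5, 202 in TfhA and 169 in Th1 (Tfh5 against TfhA -1.30 ± 0.12, adjusted p = 1.54e-09). Slc29a1 was thus lowest and Xdh highest in Th1.

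Among 9 tested intracellular nucleotidases, 3 rose and 2 fell in Tfh5 against TfhA (median log2 fold change -0.01), and the 2 that fell were 1 without TfhA replicate 1 or 5 or Tfh5 replicate 4 or 5. In TfhA against Th1, 4 rose and 1 fell (0.16), and in Tfh5 against Th1, 5 rose and 2 fell (0.22). Nt5c2, a cytosolic nucleotidase with a preference for IMP and GMP, averaged 164 CPM in Tfh5, 82.6 in TfhA and 65.9 in Th1 (Tfh5 against TfhA 0.99 ± 0.09, adjusted p = 1.61e-09). Its change was small beside that of Nt5e. Of 12 tested genes of NAD synthesis and use, 3 rose and 2 fell in Tfh5 against TfhA (median log2 fold change -0.01), with 1 rising without TfhA replicate 2 or Tfh5 replicate 4. In TfhA against Th1, 3 rose and 4 fell (-0.11), with 2 falling without TfhA replicate 2, and in Tfh5 against Th1, 4 rose and 3 fell (0.14). Nampt, the rate-limiting enzyme of NAD salvage, averaged 71.4 CPM in Tfh5, 168 in TfhA and 277 in Th1 (Tfh5 against TfhA -1.24 ± 0.10, adjusted p = 1.40e-10). Nampt RNA was lowest in Tfh5, the culture with the most Cd38 RNA, and a link between the 2 genes was not tested.

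**Figure D5:**
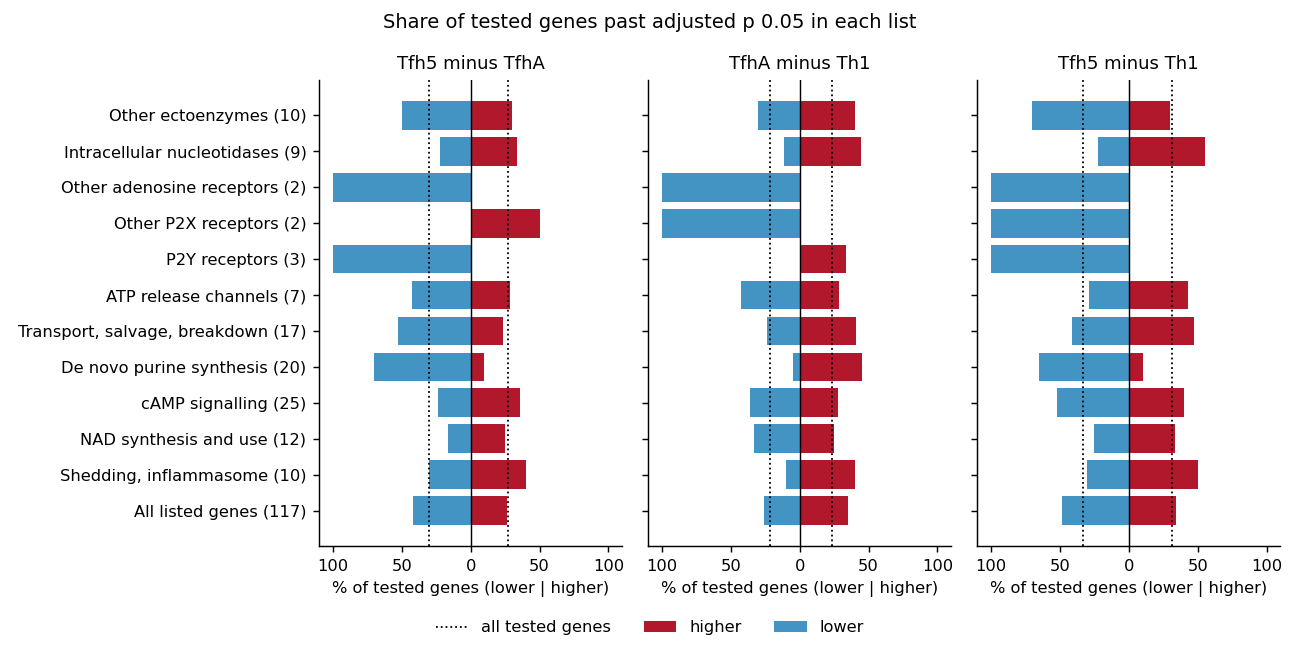
Percent of the tested genes of each list that passed at an adjusted p under 0.05, higher to the right and lower to the left, in the 3 comparisons; the number of tested genes stands in brackets and dotted lines are the shares over all tested genes. De novo purine synthesis lies mostly to the left in Tfh5 against TfhA, with 14 of 20 genes lower. The lists were chosen with earlier results of these data known.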

How the data were processed

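Raw counts per gene, under Entrez identifiers, were deposited by the authors for 14 libraries. Per the submitters' processing notes, the tools were STAR 2.7.2b and featureCounts 1.6.4, on mm10. No source used here states the strand setting, annotation or handling of multi-mapping reads, so near-identical copies and antisense genes are uncertain. The series table and the 14 single-library files held identical counts. Symbols and positions come from RefSeq for GRCm38.p6, exon lengths from GENCODE M21.

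Counts were analysed in R 4.3.3 with edgeR 4.0.16 (filterByExpr, 13075 genes kept; TMM; quasi-likelihood F test, two-sided; Benjamini-Hochberg over all tested genes, threshold 0.05) in 1 fit of all 14 libraries with no covariate. The edgeR fit and the root mean square distance were tested on simulated data. The simulated counts held far fewer changed genes than were called here, and none of those had few counts. Calls of genes with few counts were therefore not covered. CPM are TMM-scaled, log2 CPM use a prior of 2 counts, and a log2 fold change divided by the root of its F gives the SE. Replicates differed by more than counting error (chi-square per degree of freedom 4.15 to 30.6), and the biological coefficient of variation was 14.25%. Bounds for genes at 0 cover counting error only.

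The 6 genes and the lists were chosen with earlier results of these data known. Named genes are the 6, up to 3 called genes per list and comparison with at least 5 CPM, receptor genes with at least 1 CPM, and the 3 genes nearest to each of the 6. Of these, 1 gene is not reported here. Alpl, Art2b, Gsdmd, Pde3b, Pde4b, Pde4d, Pde8a, Ppat, Prkar1a, Prkar2a, Prkar2b and the single marker genes fall outside that rule and were picked with their values known. Alternatives were other scalings, DESeq2 1.42.0, no filter, 2 groups only, the replicate number as a block, no mitochondrial genes, and each library left out.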

Additional observations from a re-analysis of the deposited data

Results flagged for a closer look

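Of 167 groups of libraries for the genes named here, 12 (7.19%) held 1 library far from the rest, and chance gives about 1 in 20. Among the 6 genes this was Entpd1 in Tfh5, where replicate 3 was low at 2.45 CPM and the next library stood at 5.81 CPM. Other ectoenzyme genes did so in Tfh5: Art2a was low in replicate 1 at 5.81 CPM, with 27.3 CPM in the next library, and Bst1 was high in replicate 5 at 0.673 CPM, with 0.190 CPM in the next. Adora3 was high in Tfh5 replicate 3 at 0.661 CPM, with 0.190 CPM in the next library.

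In Tfh5, Dck was low in replicate 5 at 304 CPM (next 377), Gart was high in replicate 4 at 43.6 CPM (next 34.7), and Pde2a was low in replicate 2 at 43.2 CPM (next 60.2). In TfhA, Samhd1 was low in replicate 2 at 1274 CPM (next 1379), Gja1 was low in replicate 4 at 25.2 CPM (next 40.8), and Lrrc8a was high in replicate 2 at 35.7 CPM (next 31.1). In Th1, Gja1 was high in replicate 2 at 79.1 CPM (next 68.2) and Crem was low in replicate 1 at 533 CPM (next 674).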

How the results depend on the processing

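Every log2 fold change of the 6 genes moved by less than the spread between replicates under all alternatives and without any 1 library. The count of listed genes called stayed within 1.5 times its value: 80 in Tfh5 against TfhA (70 with only 2 groups to 84 with DESeq2; 73 to 82 leaving out 1 library), 71 in TfhA against Th1 (67 to 73; 62 to 73), and 97 in Tfh5 against Th1 (93 to 97; 91 to 96). Among single named genes, 17 of the calls were lost and 1 gained under other settings, and 35 were lost and 2 gained leaving out 1 library, counted over all settings. The difference in mitochondrial share between Tfh5 and TfhA ranged from 1.64 to 2.61 points leaving out 1 library, and missed the threshold at 1.64, without TfhA replicate 4; the cause was not tested. Same-numbered libraries showed little shared deviation (correlations of -0.05 to 0.16). Such correlations cannot decide whether the numbers mark shared animals or cultures, which the labels do not state. With the replicate block, 78 listed genes were called in Tfh5 against TfhA, 67 in TfhA against Th1 and 93 in Tfh5 against Th1. In that edgeR fit, P2ry12 in Tfh5 missed the threshold (adjusted p = 0.0578 against TfhA, 0.0525 against Th1). P2rx4 in Tfh5 against Th1 (0.0526) and Tmem176a in TfhA against Th1 (0.057) missed it as well. Depth limits the genes with few counts, such as Entpd1 in TfhA, Bst1 and Adora3.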
